A study of Mus musculus with 18 samples.

Results

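The genes described here are 10 genes of fibroblast growth factor (FGF) signalling among the 40800 genes of the count table: the receptors *Fgfr1*, *Fgfr2* and *Fgfr3*, the feedback inhibitors *Spry1*, *Spry2*, *Spry4* and *Dusp6*, and the ETS transcription factors *Etv1*, *Etv4* and *Etv5*. They were chosen by symbol, each symbol matched 1 Ensembl identifier, and all 10 passed the filter on low counts. Each of the 18 RNA-seq libraries pooled multiple whole lenses of C57BL/6J mice, and 6 groups held 3 libraries apiece. Lenses of the *Cryaa* line came from 2-day-old wild-type mice (*Cryaa*-WT), heterozygous knock-in mice (*Cryaa*-R49C-het) and homozygous knock-in mice (*Cryaa*-R49C-homo), which carry arginine 49 changed to cysteine in αA-crystallin. Lenses of the *Cryab* line were taken at 14 days from *Cryab*-WT mice and from mice whose αB-crystallin has arginine 120 changed to glycine on 1 allele (*Cryab*-R120G-het) or on both (*Cryab*-R120G-homo). Each line is a germline knock-in with a point mutation, so the mutant allele is present in every cell and the level of *Cryaa* or *Cryab* RNA does not check a label. Line and age changed together and cannot be told apart.

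FGFs that reach the lens from the eye's fluids drive lens epithelial cells at the equator to become fibre cells, and the receptors FGFR1, FGFR2 and FGFR3 pass the signal through adaptor proteins to Ras, MEK and ERK. Active ERK switches on ETS factors of the PEA3 group, which *Etv1*, *Etv4* and *Etv5* encode, and with them genes that dampen the pathway. Sprouty proteins (*Spry1*, *Spry2*, *Spry4*) hold back signalling from the receptor to Ras, and the phosphatase DUSP6 removes phosphates from ERK. RNA levels of the feedback genes are widely used as a readout of FGF signalling.

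The libraries held 14272174 to 29639719 counts each, of which the 10 most counted genes made up 59.6 to 78.2%. Levels are CPM, counts scaled to a common library total, after TMM scaling, which corrects each library total for such genes, and the TMM factors were 1.20 to 2.26 at 2 days and 0.49 to 0.77 at 14 days. *Cryaa*-R49C-homo replicate 1 stood apart from the other homo libraries (Pearson's r of log2 CPM 0.911 and 0.907, against 0.971 between the other pair), and *Cryab*-WT replicate 1 stood apart from its group (0.908 and 0.925, against 0.964). The gene *Gm42418* made up 2.53% of the counts of *Cryaa*-R49C-homo replicate 1, against 24.5% and 42.6% in homo replicates 2 and 3. *Cryaa* made up 21.0% of its counts, against 7.69% and 5.37%. Summed over 11 immediate-early genes, *Cryab*-WT replicate 1 held 1831 CPM and the other *Cryab*-WT libraries 21.4 and 23.1 CPM. Lens fibre markers were abundant in every library, at a summed level of 36606 CPM or more.

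*Fgfr3* lies on chromosome 5 of the GRCm38 assembly (33721674 to 33737068, + strand), *Fgfr2* on chromosome 7 (130162451 to 133123350, − strand) and *Fgfr1* on chromosome 8 (25513654 to 25575718, + strand). The span of *Fgfr2* is that of its GENCODE vM21 gene model, and the RefSeq start printed below lies inside it, not at its end. By GENCODE vM21, *Fgfr3* shares 998 of its 7158 exonic bases with *G630022F23Rik* on the opposite strand, and 314 of the 10328 exonic bases of *Fgfr2* are shared with *Ctbp2* on the same strand. *Spry1* shares 710 bases, which at 24.4% of its exonic length is the largest share of the 10 genes, with *Gm42922* on the opposite strand, and *Fgfr1* shares 164 bases with the antisense gene *Gm16159*. Whether counting used strand is not given in the sources used here, so reads in these opposite-strand overlaps cannot be told apart, and the levels of *Spry1* and *Fgfr3* carry that limit. *G630022F23Rik* and *Gm42922* were not in the count table under these symbols. *Ctbp2* had 127 to 587 counts per library, and only unambiguous reads were counted, so the level of *Fgfr2* carries a limit over its 314 shared bases. Promoters from RefSeq (GRCm38.p6, 250 bases before to 50 after a transcription start) were read for 7 of the 10 genes, at 10 starts. None was found for *Fgfr1* and *Etv4*, and *Spry4* was left out of the promoter search. Of these promoters 5 are printed, because their genes carry the results described here. They are those of the receptors *Fgfr3* and *Fgfr2*, whose *Cryaa*-R49C-homo and WT libraries did not overlap, and of the feedback genes *Dusp6*, *Spry2* and *Etv5*. Capitals mark GGAA, the core that ETS proteins bind, or its reverse complement TTCC. The sequences read 5′ to 3′ on the strand of each gene, at chr5:33721474-33721773 (+) for *Fgfr3*, chr7:130266759-130267058 (−) for *Fgfr2*, chr10:99262981-99263280 (+) for *Dusp6*, chr14:105896770-105897069 (−) for *Spry2* and chr16:22439521-22439820 (−) for *Etv5*.
Fgfr3: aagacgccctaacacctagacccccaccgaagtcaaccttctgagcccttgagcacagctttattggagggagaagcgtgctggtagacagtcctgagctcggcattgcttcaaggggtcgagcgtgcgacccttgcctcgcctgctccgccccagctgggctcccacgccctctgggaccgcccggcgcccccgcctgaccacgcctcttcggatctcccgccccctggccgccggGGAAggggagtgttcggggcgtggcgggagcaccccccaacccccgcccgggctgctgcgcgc
Fgfr2: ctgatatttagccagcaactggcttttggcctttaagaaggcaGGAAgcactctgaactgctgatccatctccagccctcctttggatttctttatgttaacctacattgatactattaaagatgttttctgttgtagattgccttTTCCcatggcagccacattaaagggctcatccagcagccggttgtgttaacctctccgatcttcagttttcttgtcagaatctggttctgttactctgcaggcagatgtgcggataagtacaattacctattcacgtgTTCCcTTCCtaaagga
Dusp6: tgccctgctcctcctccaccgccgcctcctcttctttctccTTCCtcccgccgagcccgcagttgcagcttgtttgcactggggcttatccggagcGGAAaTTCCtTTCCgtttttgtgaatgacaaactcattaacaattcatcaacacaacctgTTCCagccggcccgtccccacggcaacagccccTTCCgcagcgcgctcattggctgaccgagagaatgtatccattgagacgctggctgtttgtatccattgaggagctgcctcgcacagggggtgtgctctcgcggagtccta
Spry2: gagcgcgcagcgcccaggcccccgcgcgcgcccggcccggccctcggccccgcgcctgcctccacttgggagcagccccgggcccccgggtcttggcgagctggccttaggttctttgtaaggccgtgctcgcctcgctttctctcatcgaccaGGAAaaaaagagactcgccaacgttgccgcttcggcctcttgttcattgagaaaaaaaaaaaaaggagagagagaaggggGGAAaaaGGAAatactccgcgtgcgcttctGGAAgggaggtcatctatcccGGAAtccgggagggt
Etv5: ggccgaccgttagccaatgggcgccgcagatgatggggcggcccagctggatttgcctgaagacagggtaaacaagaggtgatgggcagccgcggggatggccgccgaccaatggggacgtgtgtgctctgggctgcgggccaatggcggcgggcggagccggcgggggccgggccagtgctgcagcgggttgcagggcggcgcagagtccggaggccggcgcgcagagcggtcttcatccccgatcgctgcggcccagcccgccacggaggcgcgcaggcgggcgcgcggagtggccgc

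A GGAA core on either strand was present in 96.0% of the 32851 promoters of the same length, so its presence sets no gene apart. It occurred once in the *Fgfr3* window printed and 5 times in the window at its other start, 4 times in *Fgfr2*, 6 times in *Dusp6*, 5 times in *Spry2* and nowhere in the *Etv5* window, while the window at the other *Etv5* start held 6. The longer forms CCGGAA and CAGGAA, each counted on both strands, were found in 14.9% and 30.6% of all promoters. CCGGAA was in 1 of the 10 windows read (*Spry2*), and CAGGAA was in 4 of the 10 (*Fgfr2*, *Spry2*, *Etv1* and the other start of *Etv5*). *Spry4*, *Fgfr1* and *Etv4* have no window in these counts. These letter matches are descriptions and do not show that a factor binds.

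Compared per length, *Fgfr3* was the highest of the 10 genes in all 6 groups and *Spry2* the next, though in *Cryaa*-R49C-homo the pair did not differ beyond their spread (5.56 ± 1.86 and 5.35 ± 1.79 RPKM). The deposited RPKM (a level per gene length and library total, without TMM scaling) of *Fgfr3* was 10.04 ± 0.42 (SD, n = 3) in *Cryaa*-WT and 3.34 ± 0.85 in *Cryab*-WT, and that of *Spry2* was 3.49 ± 0.56 and 1.26 ± 0.15. With TMM scaling, the CPM per kilobase of *Fgfr3* was 6.95 ± 1.54 in *Cryaa*-WT and 6.51 ± 1.44 in *Cryab*-WT, and that of *Spry2* was 2.37 ± 0.28 and 2.49 ± 0.41, so on that scale the WT groups differed by less than their spread for both genes. *Fgfr1*, *Fgfr2*, *Spry1*, *Dusp6* and *Etv5* stood between them and *Etv1* in every group, and their order changed between groups. In *Cryaa*-WT, *Fgfr1* (2.24 ± 0.43 RPKM), *Etv5* (2.11 ± 0.53 RPKM) and *Spry1* (1.95 ± 0.33 RPKM) did not differ beyond their spread. *Spry4* and *Etv4* were the lowest pair in every group, at 0.28 ± 0.20 and 0.416 ± 0.28 RPKM in *Cryaa*-WT. The other FGF receptor, *Fgfr4*, had at most 6 counts in any *Cryaa* library and none in the 9 *Cryab* libraries, where 3 counts over a library is the floor that a count of 0 allows for counting error.

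**Figure D1:**
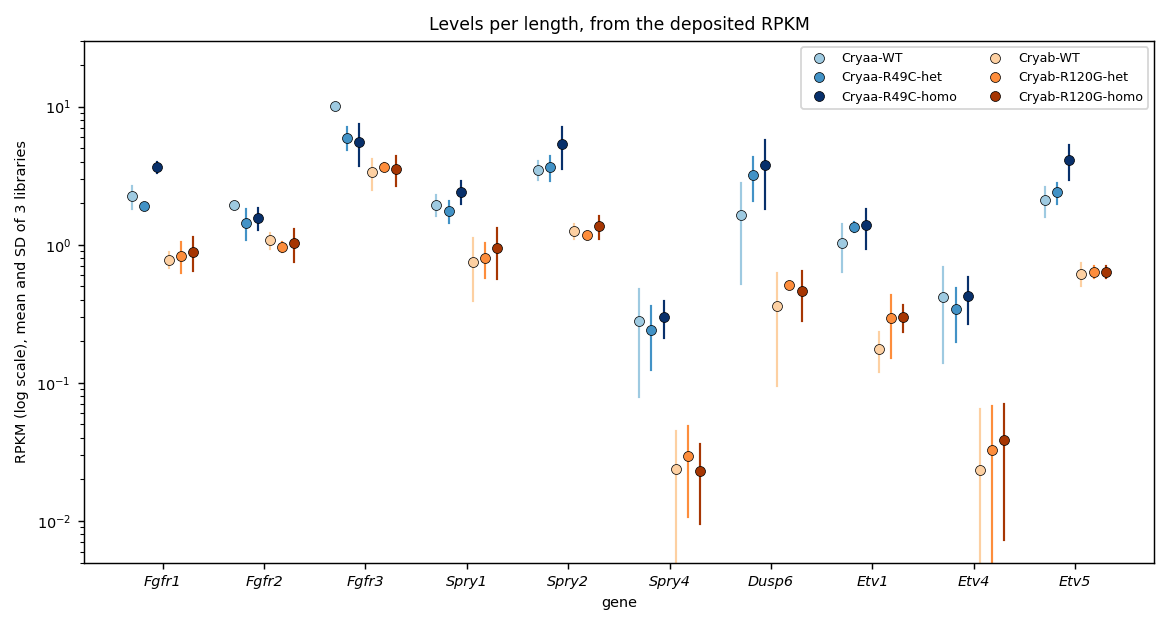
Deposited RPKM of the 10 genes on a log axis, as the mean (points) and SD (lines) of 3 libraries in each of the 6 groups. Lines whose lower end falls below the axis are cut there. *Fgfr3* has the highest mean in each group, level with *Spry2* within their spread in *Cryaa*-R49C-homo, and *Spry4* and *Etv4* are lowest.

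*Fgfr3* RNA was lower in *Cryaa*-R49C-homo lenses than in *Cryaa*-WT, and it was the one receptor past the threshold. Its level was 53.3, 55.0 and 35.8 CPM in the 3 *Cryaa*-WT libraries. It was 26.7, 30.0 and 16.0 CPM in *Cryaa*-R49C-het and 10.5, 23.6 and 25.8 CPM in *Cryaa*-R49C-homo. No mutant library of either genotype reached the lowest WT library. Against *Cryaa*-WT, *Fgfr3* fell 2.41-fold in *Cryaa*-R49C-homo (log2 fold change −1.27, SE 0.30, adjusted p = 0.00825, edgeR's quasi-likelihood test with Benjamini-Hochberg adjustment over 13938 genes). In *Cryaa*-R49C-het the log2 fold change of *Fgfr3* was −0.99 (SE 0.30, 95% interval −1.60 to −0.37, unadjusted p = 0.00307), which did not pass the adjustment (adjusted p = 0.836). Without *Cryaa*-R49C-homo replicate 1, the lowest library, the homo value was −0.96 (adjusted p = 0.00926). When the fit used the 6 libraries of the 2 groups alone it was −1.27 and did not pass (adjusted p = 0.0846). Whole-lens RNA cannot tell fewer cells with *Fgfr3* from less *Fgfr3* RNA per cell.

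*Fgfr3* was the only gene of the 10 past the threshold in this comparison, where 9.79% of all genes tested passed and 4.92% passed as lower, so 1 of 10 is near the background. The groups of *Cryaa*-R49C-homo and *Cryaa*-WT did not overlap for 3 of the 10 genes, *Fgfr2*, *Fgfr3* and *Etv5*, against 24.5% of all genes. In *Cryaa*-R49C-het no gene of the 10 passed, where 0.00717% of all genes did (1 gene, and 708 at an unadjusted p under 0.05), and only *Fgfr3* had groups that did not overlap, against 21.9% of all genes. The median log2 fold change of the 10 genes was −0.40 in het, with 2 of 10 above 0, and −0.07 in homo, with 5 of 10 above 0. The median over all genes tested was −0.01 and 0.00. Both comparisons share the *Cryaa*-WT libraries.

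*Fgfr2* was 10.7, 11.7 and 7.04 CPM in *Cryaa*-WT. It was 7.11, 7.68 and 3.74 CPM in *Cryaa*-R49C-het and 5.66, 6.09 and 5.21 CPM in *Cryaa*-R49C-homo. All homo libraries were below all WT libraries, and het overlapped WT only through *Cryaa*-WT replicate 3. The log2 fold change of *Fgfr2* was −0.80 in homo (SE 0.28, adjusted p = 0.0736) and −0.67 in het (SE 0.28, adjusted p = 0.836), and neither passed. The homo value passed with DESeq2 (adjusted p = 0.0492), the likelihood-ratio test (adjusted p = 0.0177), the replicate block (adjusted p = 0.0367) and without *Cryaa*-WT replicate 3 (−0.99, adjusted p = 0.0461), and not in the other 11 of the 15 alternatives.

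*Fgfr1* stood higher in homo than in het. It was 13.8, 12.2 and 10.9 CPM in *Cryaa*-WT, 8.52, 11.3 and 7.42 CPM in *Cryaa*-R49C-het and 11.6, 15.6 and 18.2 CPM in *Cryaa*-R49C-homo. Every homo library was above every het library, and both overlapped WT. Homo against het, the log2 fold change of *Fgfr1* was 0.74 (SE 0.25, adjusted p = 0.0689), short of the threshold. Without *Cryaa*-R49C-homo replicate 1 it was 0.89 and passed (adjusted p = 0.00662), and *Spry2* then passed as well (0.72, adjusted p = 0.0142). *Fgfr1* also passed with library size alone (0.93, adjusted p = 0.0267) and with the likelihood-ratio test (0.74, adjusted p = 0.0118), which makes 3 of 15 alternatives. With all libraries none of the 10 genes passed homo against het, where 8.32% of all genes did. *Fgfr1*, *Spry1* and *Etv5* had groups that did not overlap, each higher in homo, against 22% of all genes.

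**Figure D2:**
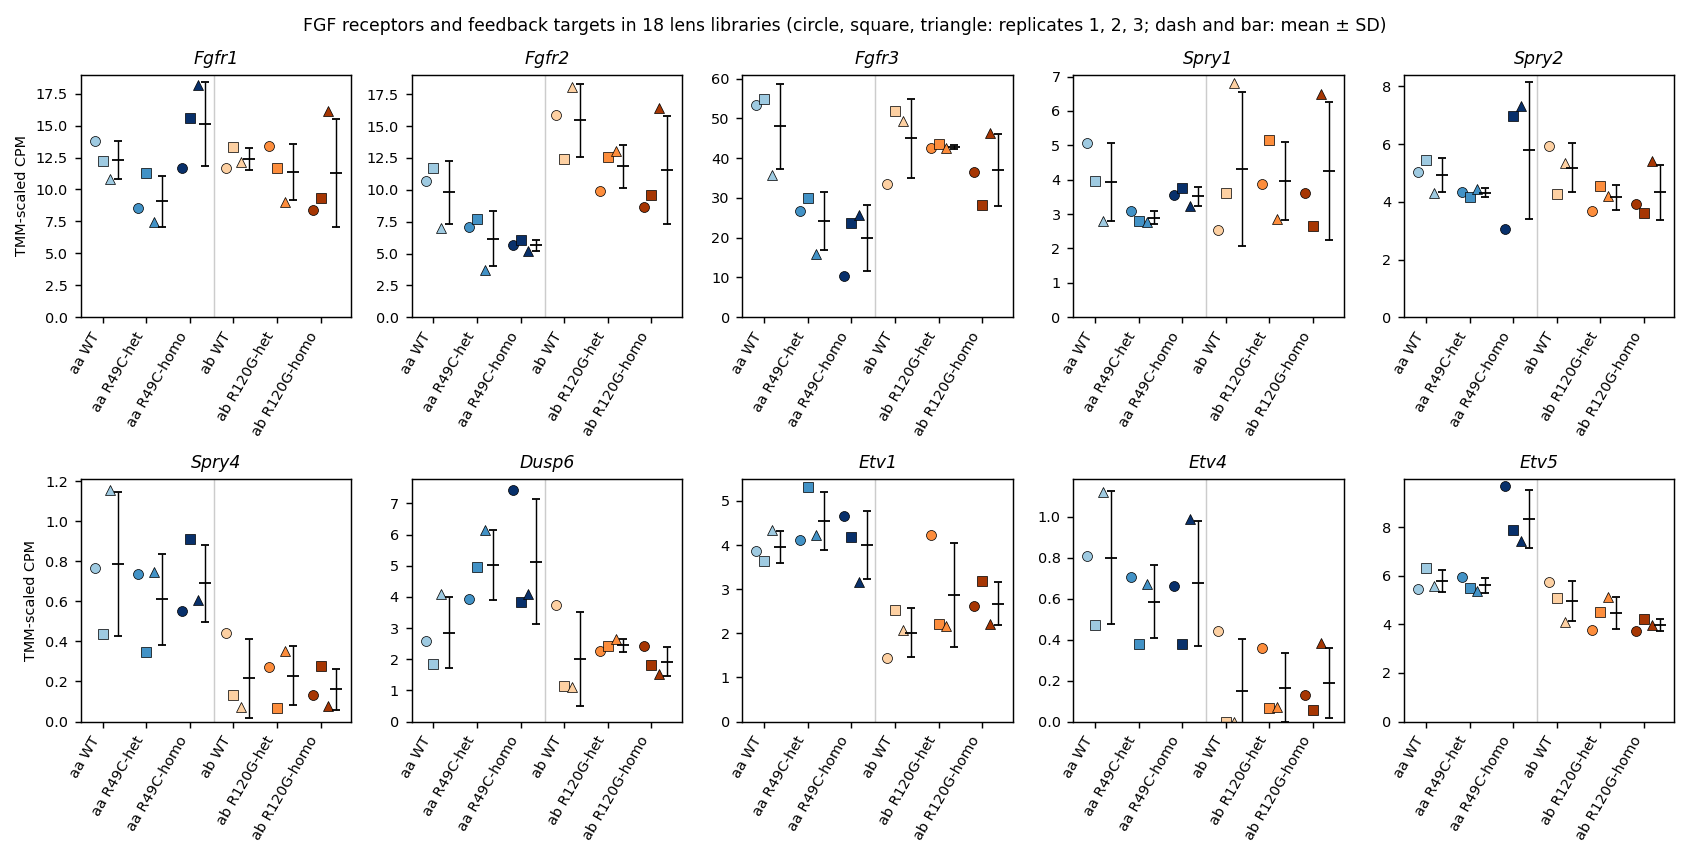
TMM-scaled CPM of each gene in each of the 18 libraries, by group (aa is the *Cryaa* line at 2 days, ab the *Cryab* line at 14 days). Symbols are replicates, and the dash and bar are the mean and SD of 3 libraries. *Fgfr3* is below every *Cryaa*-WT library in all 6 *Cryaa* mutant libraries.

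Among the feedback inhibitors, no gene passed in a *Cryaa* mutant group. *Dusp6* was 2.60, 1.86 and 4.10 CPM in *Cryaa*-WT, 3.92, 4.96 and 6.15 CPM in *Cryaa*-R49C-het and 7.44, 3.83 and 4.10 CPM in *Cryaa*-R49C-homo. Each mutant group overlapped WT only through *Cryaa*-WT replicate 3. Its log2 fold change was 0.81 in het (SE 0.37, adjusted p = 0.836) and 0.85 in homo (SE 0.37, adjusted p = 0.150), and neither passed. Without *Cryaa*-R49C-homo replicate 1 the homo value was 0.47 and did not pass. The library with the highest *Dusp6*, *Cryaa*-R49C-homo replicate 1, had the lowest *Fgfr3* of all 18, and the next highest *Dusp6* and next lowest *Fgfr3* were also in 1 library, *Cryaa*-R49C-het replicate 3.

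**Figure D3:**
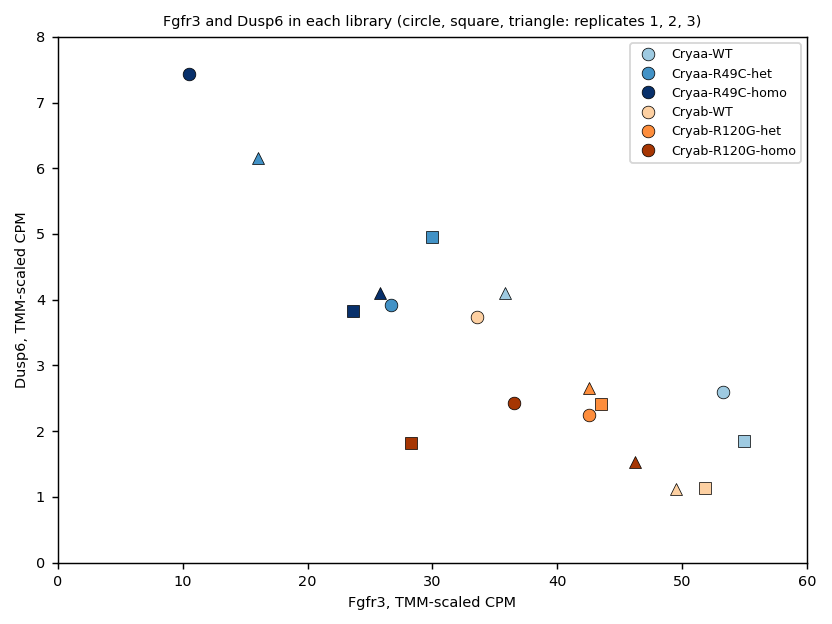
*Fgfr3* against *Dusp6* in each of the 18 libraries, both in TMM-scaled CPM. Colours are groups and symbols are replicates. *Cryaa*-R49C-homo replicate 1 (10.5 and 7.44 CPM) is at the top left, and *Cryaa*-WT replicates 1 and 2 are at the lower right.

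The levels of the Sprouty genes overlapped between each *Cryaa* mutant group and WT. *Spry1* was 5.07, 3.95 and 2.80 CPM in *Cryaa*-WT, 3.10, 2.81 and 2.77 CPM in het and 3.57, 3.77 and 3.23 CPM in homo. *Spry2* was 5.02, 5.47 and 4.31 CPM in WT, 4.33, 4.17 and 4.46 CPM in het and 3.06, 6.97 and 7.33 CPM in homo. Homo replicate 1 was thus the lowest of the 9 *Cryaa* libraries for *Spry2* and the other homo libraries were the highest. *Spry4* had 11 to 33 counts per *Cryaa* library, and its intervals against WT ran from −1.45 to 0.74 in het and from −1.29 to 0.90 in homo on the log2 scale, so a change within these bounds was not detectable at this depth.

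Of the ETS factors, *Etv5* was 5.45, 6.31 and 5.57 CPM in *Cryaa*-WT, 5.96, 5.50 and 5.36 CPM in *Cryaa*-R49C-het and 9.68, 7.88 and 7.41 CPM in *Cryaa*-R49C-homo. All homo libraries were above all WT and all het libraries. The log2 fold change was 0.53 against WT (SE 0.20, adjusted p = 0.100) and 0.57 against het (SE 0.20, adjusted p = 0.0784), and neither passed. With the likelihood-ratio test both passed (0.53, adjusted p = 0.0324, and 0.58, adjusted p = 0.0162). Scaled by library size alone, the homo value of *Etv5* against WT was 0.97 and passed (adjusted p = 0.0172), on a scale where the median of all genes moved by 0.41. *Etv1* overlapped between the 3 groups, with log2 fold changes of 0.20 in het (SE 0.27) and 0.02 in homo (SE 0.27). *Etv4* had 12 to 32 counts per *Cryaa* library and also overlapped, at −0.44 in het (SE 0.64) and −0.25 in homo (SE 0.64).

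**Figure D4:**
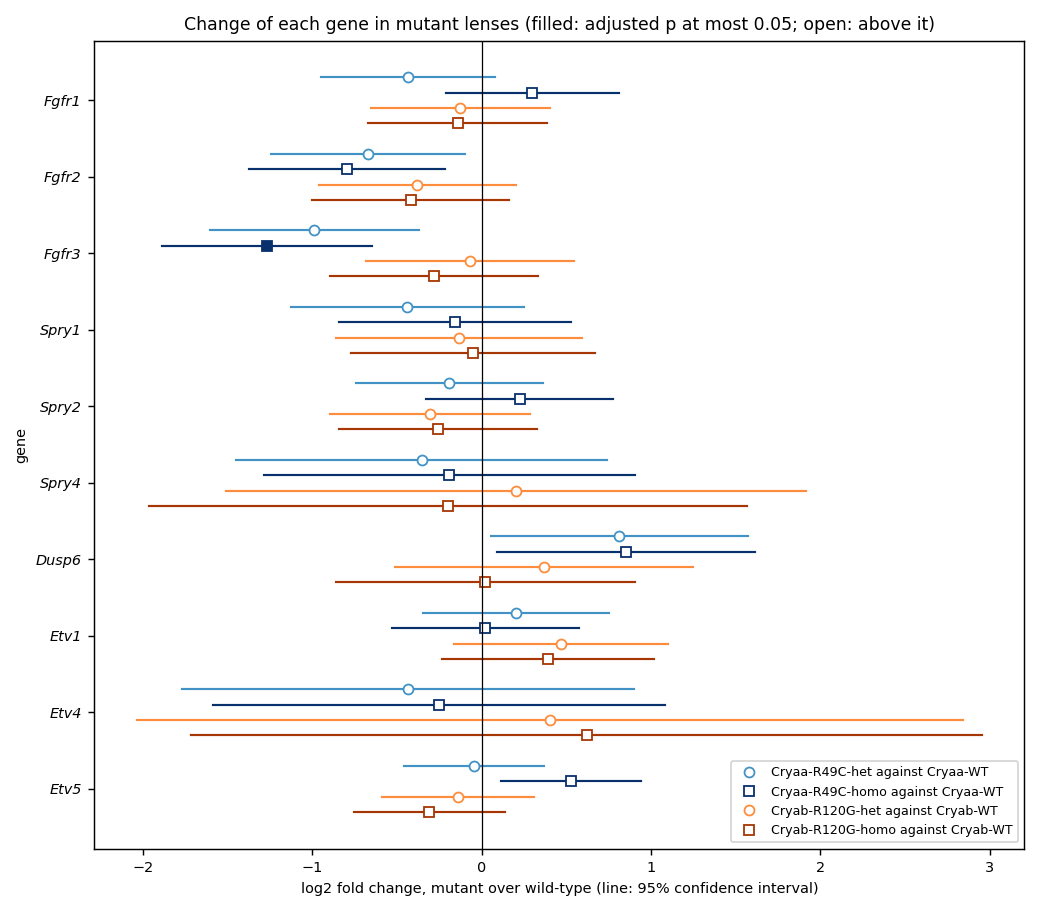
Log2 fold change of each gene in the mutant groups of each line against the WT of that line, with its 95% confidence interval. A filled symbol marks an adjusted p at most 0.05 and an open symbol a value above it. The 1 filled symbol is *Fgfr3* in *Cryaa*-R49C-homo (−1.27), and the widest intervals belong to *Etv4* and *Spry4*.

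Other genes of the pathway were compared between *Cryaa*-R49C-homo and *Cryaa*-WT, where 9.79% of all genes passed and 4.92% passed as lower, so the counts in these lists are near the background. Of 25 adaptor and Ras-ERK genes tested 2 fell and 1 rose. *Shc1*, the adaptor that links phosphorylated receptors to GRB2, was 45.8, 51.1 and 29.4 CPM in WT and 10.3, 11.0 and 12.9 CPM in homo, with no overlap. It fell by 1.88 on the log2 scale (SE 0.22, adjusted p = 5.75e-06), and het stood at 29.9, 40.5 and 26.1 CPM, also above every homo library. *Crkl*, another adaptor, fell (log2 fold change −0.91, adjusted p = 0.0341), and *Map2k1*, which encodes the ERK kinase MEK1, rose (0.85, adjusted p = 0.0173). Of 4 other receptors and co-receptors tested, the FGF receptor partner *Flrt1* fell (−1.44, adjusted p = 0.0162). Of 26 genes of heparan sulfate, the sugar chain that FGFs need to bind their receptors, the sulfotransferase *Hs6st2* fell (−1.04, adjusted p = 0.0467). Of 12 other ERK feedback and target genes tested, *Phlda1* rose (1.30, adjusted p = 0.027) and cyclin D1 (*Ccnd1*) fell (−0.81, adjusted p = 0.0485). *Shc1* passed under all 15 alternative settings, whereas the calls of *Flrt1*, *Hs6st2*, *Map2k1*, *Crkl*, *Phlda1* and *Ccnd1* were each lost under some, 3 to 12 of the 15 keeping the call.

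Homo against het in the *Cryaa* line, where 8.32% of all genes passed, *Shc1* fell (−1.497, adjusted p = 0.00013), as did *Flrt1* (−1.35, adjusted p = 0.0277) and *Ccnd1* (−0.99, adjusted p = 0.0194). *Rasa1*, a Ras GTPase-activating protein, rose (0.96, adjusted p = 0.0256), and so did *Glce*, an epimerase of heparan sulfate synthesis (0.93, adjusted p = 0.0374). *Shc1* kept its call in all 15 alternatives, *Rasa1* in 8, *Ccnd1* in 7, and *Flrt1* and *Glce* in 6 each. In het against WT no gene of these lists passed, and the median log2 fold changes were −0.36 for the 25 adaptor and Ras-ERK genes, −0.14 for the 26 heparan sulfate genes, −0.21 for the 12 other ERK feedback and target genes, −0.31 for the 4 other receptors and 0.10 for the 3 ligands, against −0.01 for all genes. The 8 immediate-early genes tested had a median of 1.38 in het against WT and of 0.63 in homo against WT, with 7 of 8 above 0 and none past the threshold in either comparison. Their summed level was 21.9, 40.5 and 25.3 CPM in *Cryaa*-WT, 20.2, 86.2 and 50.3 CPM in het and 41.5, 50.9 and 47.1 CPM in homo. Every homo library was thus above every WT library, while het overlapped WT.

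Most ligand genes had few counts in lens RNA. Of 18 secreted FGF genes, 3 had enough counts to test: *Fgf1*, *Fgf9* and *Fgf15*. *Fgf1* had 8 to 41 counts per library over the 18 libraries and *Fgf2* at most 2. None of the 3 passed in a mutant group against WT. *Fgf15* was 5.19, 10.2 and 15.6 CPM in *Cryaa*-WT and 9.002, 0.565 and 2.13 CPM in *Cryaa*-R49C-homo, so the groups overlapped.

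Some markers of lens and neighbouring cells passed in the comparison of *Cryaa*-R49C-homo with *Cryaa*-WT, to be read against the 9.79% of all genes that passed and the 4.92% that passed as lower. There 6 of 14 fibre markers tested fell, and their summed level was 36606 to 94311 CPM in homo and 86762 to 131769 CPM in WT. Of 7 epithelium markers tested 1 fell, the gap junction gene *Gja1* (−2.00, adjusted p = 4.77e-05), and the sum was 482 to 627 CPM in homo and 624 to 789 CPM in WT. Both identifiers of the epithelium marker *Pdpn* were at 0 in every library. Of 7 macrophage markers 2 rose, *C1qa* and *Aif1* (sum 18.4 to 32.9 CPM in homo, 6.68 to 16.1 CPM in WT) and of 7 pigment cell markers 2 fell, *Pmel* and *Mlana* (sum 6.27 to 13.3 CPM in homo, 17.4 to 31.8 CPM in WT). Of 10 vessel and mesenchyme markers 1 rose (*Cdh5*) and 1 fell (*Col1a2*). None of 12 retina or 5 erythrocyte markers passed. The part of these cell types in the *Fgfr3*, *Shc1* and other pathway results was not tested.

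In *Cryab* mutant lenses none of the 10 genes passed against *Cryab*-WT. *Fgfr3* was 33.6, 51.8 and 49.5 CPM in *Cryab*-WT, 42.5, 43.5 and 42.5 CPM in *Cryab*-R120G-het and 36.5, 28.3 and 46.2 CPM in *Cryab*-R120G-homo. The 3 groups overlapped. The log2 fold change of *Fgfr3* in homo was −0.28 with a 95% interval of −0.90 to 0.33, and in het −0.07 with an interval of −0.69 to 0.54. *Fgfr2* was −0.42 in homo (interval −1.001 to 0.16) and *Etv5* −0.31 (interval −0.76 to 0.14). *Dusp6* was 3.74, 1.13 and 1.11 CPM in *Cryab*-WT, 2.25, 2.41 and 2.66 CPM in het and 2.42, 1.81 and 1.53 CPM in homo. Its highest value was thus in *Cryab*-WT replicate 1, the library with the immediate-early RNAs, and the other WT libraries were below every mutant library. The log2 fold change of *Dusp6* was 0.37 in het and 0.02 in homo, and without *Cryab*-WT replicate 1 it was 1.12 (adjusted p = 0.761) and 0.78 (adjusted p = 0.688).

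No marker of another cell type passed in either *Cryab* mutant group against *Cryab*-WT, but their levels were not alike. The pigment cell markers summed to 3.63 to 4.93 CPM in *Cryab*-WT, 9.66 to 34.7 CPM in het and 10.1 to 19.6 CPM in homo, and all 7 tested had a log2 fold change above 0 in both. The retina markers summed to 803, 24.6 and 82.8 CPM in WT, 620, 291 and 101 CPM in het and 1195, 613 and 211 CPM in homo, with 12 of 12 above 0 in homo and a median of 1.25. The macrophage markers summed to 0.867 to 2.09 CPM in WT, 1.89 to 3.24 CPM in het and 2.06 to 6.61 CPM in homo, and the erythrocyte markers to 15.5 to 145 CPM, 133 to 450 CPM and 49.2 to 177 CPM. Mutant libraries thus lay above WT without overlap for the pigment cell markers and overlapped WT for the other 3 lists. The part of these cell types in the *Cryab* values was not tested.

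Few genes of any kind passed in this line. For het against WT 0.00717% of all genes passed (1 gene) and for homo against WT 0.0502% (7 genes, and 18 with the replicate block), while homo against het gave 0% (0 genes by edgeR, 273 at an unadjusted p under 0.05, 2 by the likelihood-ratio test and 0 by DESeq2). For none of the 10 genes were the groups apart in these comparisons, against 10.1%, 9% and 6.86% of all genes. No gene of the pathway lists passed either. *Spry4* (1 to 5 counts per *Cryab* library) and *Etv4* (0 to 5 counts) were near the floor of 3 counts, and a change between genotypes in them was not detectable at this depth.

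The homo effect was compared between the lines by the difference of the log2 fold changes, *Cryab* minus *Cryaa*. None of the 10 genes passed, where 2.91% of all genes did. The largest differences in units of their error were *Etv5* (−0.84, SE 0.29, adjusted p = 0.147) and *Fgfr3* (0.99, SE 0.42, adjusted p = 0.249). A change of *Fgfr3* in one line and not in the other is therefore not shown to differ between them. *Shc1* did differ: it was 66.5, 72.9 and 68.6 CPM in *Cryab*-WT and 53.4, 61.1 and 62.6 CPM in *Cryab*-R120G-homo, and the difference of effects was 1.65 (SE 0.31, adjusted p = 0.00331).

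Between the WT groups, 14 days against 2 days, 3 of the 10 genes passed, all lower, where 23.2% of all genes passed and 11.5% passed as lower. *Etv1* was 3.87, 3.64 and 4.34 CPM at 2 days and 1.43, 2.53 and 2.08 CPM at 14 days (log2 fold change −0.95, SE 0.29, adjusted p = 0.0222). *Etv4* had 19, 14 and 32 counts at 2 days and 4, 0 and 0 at 14 days (−2.76, SE 0.92, adjusted p = 0.0334). *Spry4* had 18, 13 and 33 counts and 4, 2 and 1 counts (−1.99, SE 0.69, adjusted p = 0.0399). With at most 5 counts in any *Cryab* library, *Etv4* and *Spry4* passed the filter on low counts only through the 2-day libraries, so a lower level at 14 days was the one direction open to them and their calls are no support for it. The groups did not overlap for *Etv1*, *Etv4* and *Fgfr2*, the last higher at 14 days (15.9, 12.4 and 18.1 CPM, adjusted p = 0.094, and past the threshold with the likelihood-ratio test at 0.0428, only the groups contrasted at 0.0424 and the replicate block at 0.0346), against 43.2% of all genes. The calls were lost when some single libraries were left out. Without *Cryaa*-WT replicate 3 or without *Cryab*-WT replicate 3 none of the 3 passed, and without *Cryaa*-WT replicate 1 or *Cryab*-WT replicate 2 only *Etv1* did. The value of *Etv1* stayed between −1.15 and −0.78 when any 1 of the 6 libraries was left out. Without *Cryab*-WT replicate 1, *Etv1* missed the threshold (−0.78, adjusted p = 0.0826), *Spry4* (−2.85) and *Etv4* (−7.28) passed, the latter against libraries at 0 counts so that its value is no bound, and *Dusp6* passed as lower (−1.34, adjusted p = 0.0207).

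For *Fgfr1*, *Fgfr2*, *Spry1* and *Spry2* the direction between the WT groups depended on the scaling. Library size alone moved the median of all genes by −1.61 on the log2 scale, where TMM left it at −0.07. On that scale all 10 genes passed as lower, where 11593 of the 13938 genes tested passed in either direction. *Fgfr3* was at −1.59, *Fgfr1* at −1.52 and *Fgfr2* at −0.85. The values of *Fgfr3* and *Fgfr1* are close to the shift of all genes, and that of *Fgfr2* is above it. *Etv1* fell under each of the 4 scalings by more than the median of all genes. *Dusp6* and *Etv5* also stood below that median under each, but passed only under library size alone and the total outside the 10 most counted genes.

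**Figure D5:**
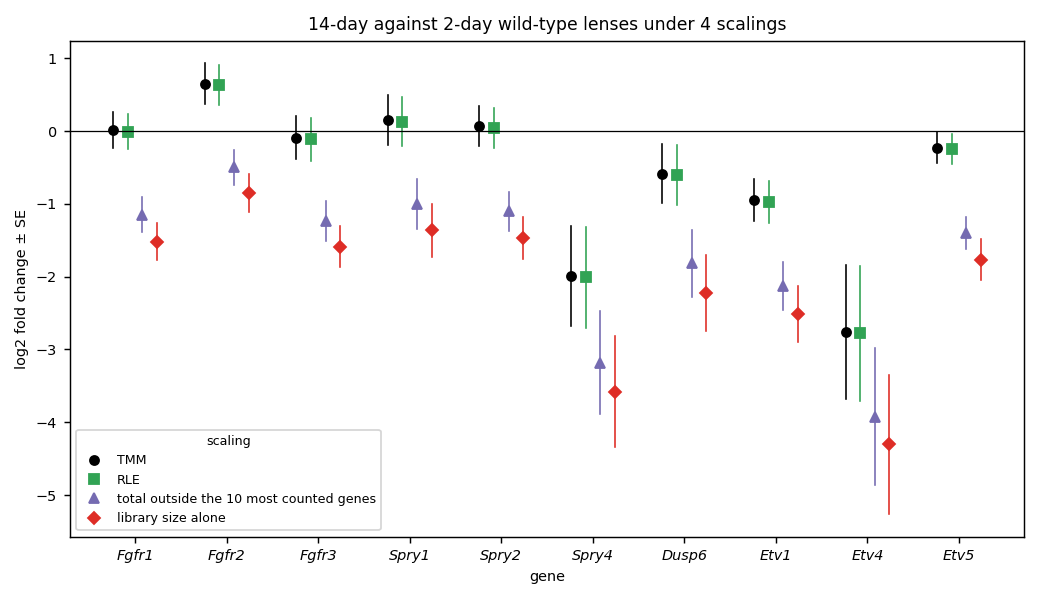
Log2 fold change (with SE) of each gene in *Cryab*-WT at 14 days against *Cryaa*-WT at 2 days under 4 scalings. TMM and RLE put *Fgfr1*, *Fgfr3*, *Spry1* and *Spry2* near 0, and library size alone and the total outside the 10 most counted genes put all 10 genes below 0.

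The other pathway genes past the threshold between the WT groups are to be read against the 23.2% of all genes that passed. They were, among the adaptors, *Shc1* (0.72, adjusted p = 0.0197), *Grb2* (0.76, adjusted p = 0.00745) and the ERK gene *Mapk3* (0.81, adjusted p = 0.00627). All were higher at 14 days under TMM and lower under library size alone and the total outside the 10 most counted genes. The call of *Shc1* was also lost under other settings, as without *Cryaa*-WT replicate 3 (adjusted p = 0.136). That of *Grb2* was lost without the filter (adjusted p = 0.07) and without *Cryab*-WT replicate 2 (adjusted p = 0.0592). *Rps6ka1*, a kinase that ERK activates, fell (−1.68, adjusted p = 0.0215), a call kept in 10 of 14 alternatives and lost at −1.18 (adjusted p = 0.126) without *Cryab*-WT replicate 3. Of the 3 ligands tested *Fgf9* (−4.02, adjusted p = 0.00527) and *Fgf15* (−6.50, adjusted p = 0.00195) fell, and *Fgf15* had 122, 303 and 445 counts at 2 days and 4, 0 and 0 at 14 days. Its fitted value ran from −10.96 to −5.79 over the alternatives and is no bound, and *Fgf15*, with at most 4 counts in any *Cryab* library, passed the filter only through the 2-day libraries. *Fgf9* stood at 0.53 ± 0.41 CPM per kilobase in *Cryaa*-WT and at 0.035 ± 0.030 in *Cryab*-WT, which is near the floor. A lower level at 14 days was thus the direction open to *Fgf9* and *Fgf15*, and their calls are no support for it. *Flrt1* fell (−1.43, adjusted p = 0.0136), a call kept in 12 of 14 alternatives. Of 26 heparan sulfate genes 2 rose, *Sdc4* (1.61, adjusted p = 0.00015) and *Sdc2* (1.02, adjusted p = 0.00302). Both calls were lost under library size alone, where *Sdc4* was 0.04 and *Sdc2* −0.48, and under the total outside the 10 most counted genes (0.41 and −0.13). In the same list 4 fell, led by the matrix proteoglycan *Agrn* (−2.11, adjusted p = 8.24e-05), the sulfatase *Sulf2* (−2.45, adjusted p = 0.000161) and *Gpc6* (−1.15, adjusted p = 0.00111). Of 12 ERK feedback and target genes 4 fell, led by *Ccnd1* (−1.62, adjusted p = 0.000147), *Spred1* (−1.29, adjusted p = 0.00126) and *Spred2* (−1.68, adjusted p = 0.0142), the last kept in 12 of 14 alternatives. *Spred1* and *Spred2* encode inhibitors of the Ras-ERK path related to the Sproutys.

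*Egr1*, an early ERK target, passed as higher at 14 days (5.71, adjusted p = 0.0401), but its *Cryab*-WT values were 288, 1.20 and 1.56 CPM, and without replicate 1 its value was −0.41. The immediate-early genes *Junb*, *Nr4a1* and *Dusp1* also passed (adjusted p = 0.0356, 0.0316 and 0.0356) with replicate 1 above the other *Cryab*-WT libraries in each, as for *Junb* at 123, 0.133 and 0.0742 CPM. Without that library *Junb* was −2.44 (adjusted p = 0.133), *Nr4a1* 0.05 (adjusted p = 0.973) and *Dusp1* 0.19 (adjusted p = 0.651), against 6.07, 4.11 and 2.40 with it. Cell markers were also compared between the WT groups, where line and age cannot be told apart. Their counts are to be read against the 11.7% of all genes that passed as higher and the 11.5% that passed as lower. Their direction was not compared under the other scalings. All 7 macrophage markers fell (summed level 6.68 to 16.1 CPM at 2 days, 0.867 to 2.09 CPM at 14 days). In *Cryab*-WT only 3 of these 7 had counts in all libraries, so a lower level was largely the one direction open to them. In the other lists 7 of 14 fibre markers rose, 5 of 7 pigment cell markers fell, 5 of 12 retina markers rose and 1 fell, 1 of 10 vessel and mesenchyme markers rose and 5 fell, and 1 of 7 epithelium markers rose and 2 fell. The retina markers summed to 22.5 to 70.7 CPM at 2 days and to 803, 24.6 and 82.8 CPM at 14 days, so the high value was that of *Cryab*-WT replicate 1 alone. Their part in the results was not tested.

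The genes whose levels followed each of the 10 most closely were searched among 10418 genes by Pearson's r of log2 CPM over the 18 libraries, after the mean of each line was removed. Libraries of a group share genotype, and all values share the scaling, so r is a description. *Fgfr3* was most like the potassium channel gene *Kcnd3* (r = 0.95), and *Fgfr2* most like the type IV collagen gene *Col4a6* (r = 0.95) and *Fgfrl1*, an FGF receptor without a kinase domain (r = 0.93). *Fgfr1* was most like *Bach2* (r = 0.90) and *Nfic* (r = 0.90), and *Spry2* most like *Basp1* and *Chd8* (r = 0.93 each). *Etv5* was most like *Tpst2* (r = 0.88) and *Gdf15* (r = 0.87). *Dusp6* (*Rabgef1*, r = 0.85), *Etv4* (*Peli2*, r = 0.86), *Spry4* (*Wdr76*, r = 0.84), *Etv1* (*Stx6*, r = 0.82) and *Spry1* (*Grid1*, r = 0.81) had weaker matches.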

How the data were processed

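RNA of pooled whole lenses was sequenced in 18 libraries as single 50-base reads after a poly-A kit. Per the labels and the study's methods, the authors aligned reads with STAR 2.0.4b to the Ensembl GRCm38 assembly and counted uniquely aligned, unambiguous reads per gene with Subread featureCounts 1.4.5. The deposited counts are raw, and the deposited RPKM are the authors' counts per library total and gene length, used only to compare genes. Of 41422 lines 40800 genes remained after identical repeats were dropped. The deposited CPM and log2 CPM tables repeat these counts on other scales and were not read. Groups came from sample titles, because for 6 *Cryab* libraries the genotype label gives *Cryaa*.

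The 13938 genes kept by filterByExpr were scaled with TMM and fitted with edgeR 4.0.16 (R 4.3.3), in 1 model of the 6 groups over all 18 libraries with robust quasi-likelihood dispersions. An adjusted p is a Benjamini-Hochberg value over these genes in 1 comparison, with a threshold of 0.05. Log2 CPM used a prior count of 2. The 10 genes and all gene lists were chosen with earlier results of these data known. Named besides the 10 genes are, in each pathway list and comparison, at most 3 genes past the threshold in each direction with the lowest adjusted p, some ligands and *Fgfr4* by level, and for each gene the closest genes by correlation. Marker genes were named after their values were seen. The pipeline was tested on simulated data. Alternatives were no filter, RLE scaling, library size alone, the total outside the 10 most counted genes, a likelihood-ratio test with robust dispersions, DESeq2 1.42.0, fewer libraries and a replicate block. Replicate numbers are shared between groups, but the main fit paired no libraries, and the replicate block was an alternative only. Same-numbered libraries were treated as possibly paired where every r of their deviations was over 0.1. This held for *Cryab*-R120G-homo against *Cryab*-WT (r = 0.28, 0.18 and 0.16). In every other comparison at least 1 pair was at 0.0436 or lower. No pair of libraries agreed within sampling noise. The study's methods call the 3 pools of lenses in each group biological replicates.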

Additional observations from a re-analysis of the deposited data

Results flagged for a closer look

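*Shc1*, which encodes an adaptor between receptors and Ras, changed differently in homo lenses of the 2 lines. The difference of its log2 fold changes, *Cryab* line minus *Cryaa* line, was 1.65 (SE 0.31, adjusted p = 0.00331 in edgeR's quasi-likelihood test). It was lower in 3 of 3 *Cryaa*-R49C-homo libraries than in any *Cryaa*-WT library, and 3 of 3 *Cryab*-R120G-homo libraries were below the lowest *Cryab*-WT library. Over the 20 alternative settings the difference ran from 1.501 to 1.86 and stayed past the threshold. Line and age cannot be told apart.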

How the results depend on the processing

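*Fgfr3* in *Cryaa*-R49C-homo against *Cryaa*-WT was lower in all 15 alternatives (log2 fold change −1.49 to −0.85) and past the threshold in 14. The number of the 10 genes past the threshold there was 1, and it was 2 with library size alone, 3 with the likelihood-ratio test, 2 with DESeq2, 2 with the replicate block, 0 with only the groups contrasted, and 1 to 2 when 1 library was left out. Homo against het in that line it was 0, and it was 1 with library size alone, 2 with the likelihood-ratio test and 0 to 2 when 1 library was left out. For *Cryab*-WT against *Cryaa*-WT it was 3, and it was 10 with library size alone, 9 with the total outside the 10 most counted genes, and 0 to 3 when 1 library was left out. The other comparisons gave 0 under every alternative run. In the paired check, the replicate block moved the genes called in *Cryab*-R120G-homo against *Cryab*-WT from 7 to 18 and changed no call of the 10 genes there, while in *Cryaa*-R49C-homo against *Cryaa*-WT it brought *Fgfr2* past the threshold (adjusted p = 0.0367), and between the WT groups it brought *Fgfr2* in (adjusted p = 0.0346) and took *Spry4* out (adjusted p = 0.0507). The cause of these changes was not tested.

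Between the WT groups, signs turned under library size alone for *Fgfr1* (−1.52), *Fgfr2* (−0.85), *Spry1* (−1.36), *Spry2* (−1.47), *Sdc2* (−0.48), *Mapk3* (−0.72), *Grb2* (−0.77) and *Shc1* (−0.76), and under the total outside the 10 most counted genes for *Fgfr1* (−1.15), *Fgfr2* (−0.50), *Spry1* (−0.998), *Spry2* (−1.10), *Sdc2* (−0.13), *Mapk3* (−0.36), *Grb2* (−0.41) and *Shc1* (−0.42). These scalings moved the median of all genes by −1.61 and −1.24. Without *Cryab*-WT replicate 1, *Egr1* and *Junb* turned, and over the libraries left out in turn they ranged from −0.41 to 6.98 and from −2.44 to 6.86.

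Genes called over the whole table also moved. In *Cryaa*-R49C-homo against *Cryaa*-WT there were 1365, and 478 with only the groups contrasted, 2138 with library size alone (1884 higher and 254 lower, against 679 and 686), 2886 with the likelihood-ratio test, 3094 when *Cryaa*-R49C-homo replicate 1 was left out, while leaving out *Cryaa*-WT replicate 1, *Cryaa*-WT replicate 2 or *Cryaa*-R49C-homo replicate 2 gave 731, 776 or 823. Homo against het gave 1160, and 294 with only the groups contrasted, 677 with the 9 libraries of the line, 3051 with the likelihood-ratio test, 4131 when *Cryaa*-R49C-homo replicate 1 was dropped, and 453 to 600 without any other library of either group. Het against WT gave 1, and 17 without the filter and 15 with the likelihood-ratio test. In the *Cryab* line, het against WT gave 1, and 140, 46 and 12 without the filter, with the likelihood-ratio test and with DESeq2, homo against WT gave 7, and 302, 257 and 20, and homo against het gave 0, and 15 without the filter and 2 with the likelihood-ratio test. The WT groups gave 3237, and 1782 without *Cryaa*-WT replicate 3, 11593 with library size alone and 10124 with the total outside the 10 most counted genes. The difference of homo effects gave 406, and between 209 (only the groups contrasted) and 1800 (without *Cryaa*-R49C-homo replicate 1). Depth limits *Spry4* and *Etv4*, which had at most 5 counts in any *Cryab* library.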
